A study of Mus musculus with 10 samples.

Results

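The surface targets of small cell lung cancer described here are the genes Sez6, Ncam1, Sstr2, Kit, Cd276, Cd47, Cd24a, Ceacam1 and B4galnt1. They were found by symbol, and all 9 were present among the 35288 genes of the expression table. Most encode a surface protein that has been studied as a drug or antibody target, and B4galnt1 encodes the enzyme that makes a targeted surface glycolipid. The RNA came from tumors of the lung and metastases in the liver of mice with small cell lung cancer, a tumor of neuroendocrine cells. A total of 6 mice, 3 of each genotype, gave 10 libraries, and 4 of the mice gave both a lung tumor and a liver metastasis.

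All mice carried the RPR2 background, the name of a model that lacks Rb1, Trp53 and Rbl2, all tumor suppressors. RPR2 mice gave lung tumors of JHK1373, JHK1394 and JHK1548 (n = 3) and liver metastases of JHK1373 and JHK1394 (n = 2). The second genotype, RPR2;Nfibf/f, adds floxed alleles of the transcription factor gene Nfib, and these mice are called Nfib-floxed. They gave lung tumors of JHK997, JHK1398 and JHK1399 (n = 3) and liver metastases of JHK1398 and JHK1399 (n = 2). The sources used here give neither the age and strain of the mice nor how Cre was delivered. Levels are in TPM, a unit that divides reads by transcript length and sets each library to the same total. TPM keeps no sequencing depth, so the depth behind each value is unknown. A change is the limma difference between group means of log2(TPM + 1) and is given ± its standard error, some with a 95% interval. This scale understates the change of low genes. A gene passed where its Benjamini-Hochberg adjusted p over the 15503 genes tested was under 0.05. All 9 members entered the test.

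Small cell lung cancer cells carry many proteins of nerve and endocrine cells on their surface. Antibodies, antibody-drug conjugates and radioactive peptides use such proteins to reach the tumor cell, while antibodies against checkpoint ligands act on how immune cells meet it. An RNA level is not a measure of protein at the surface. In bulk tumor samples, fewer cells of a type and less RNA per cell cannot be told apart.

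Some libraries stood apart before any comparison was made. Nfib was at 28.3 to 118 TPM in RPR2 lung tumors, 26.5 to 38.6 TPM in Nfib-floxed lung tumors, 62.8 and 643 TPM in RPR2 metastases and 41.3 and 46.1 TPM in Nfib-floxed metastases. Which exons are floxed is not in the labels, so whole-gene levels check the genotype little. Summed club cell markers, genes of normal airway, reached 60565 TPM in the lung tumor of JHK1394 (RPR2) and 55984 TPM in that of JHK1398 (Nfib-floxed). They were at 1677 to 12674 TPM in the other lung tumors and 9.88 to 197 TPM in metastases. Summed hepatocyte markers were at 11159.8 and 11862 TPM in RPR2 metastases, and at 146 (JHK1398) and 3449 TPM (JHK1399) in Nfib-floxed metastases. Summed neuroendocrine markers were at 3187 to 77476 TPM, and none of the 11 was at 0 in any library. Calca alone ran from 545 to 71946 TPM, so the range of this sum came mostly from Calca. The library labelled Nfib-floxed metastasis of JHK1398 correlated at 0.932 with the RPR2 lung tumor of JHK1373, 0.916 with the other Nfib-floxed metastasis and 0.809 with its own mouse's lung tumor. Results are therefore also given without these lung tumors or this metastasis where a value turns on them.

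Every target but Ceacam1 was found above 1 TPM in all 10 libraries, and 6 of the 9 stayed above 10 TPM throughout. Cd24a led with a mean of 767 TPM over the 10 libraries, higher than 99.5% of all genes in the table. Cd47 followed at 79.4 TPM, Sez6 at 51.2, B4galnt1 at 47.4, Kit at 45.6, Ncam1 at 33.4, Cd276 at 19.1, Ceacam1 at 10.1 and Sstr2 at 7.54 TPM. Cd24a exceeded Cd47 in 10 of 10 libraries, and their ranges did not overlap. All other neighbours in this order had ranges that overlapped, and the order held in 3 to 9 of the 10 libraries. Kit exceeded Ncam1, for instance, in 8 libraries and Ceacam1 exceeded Sstr2 in 3.

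**Figure D1:**
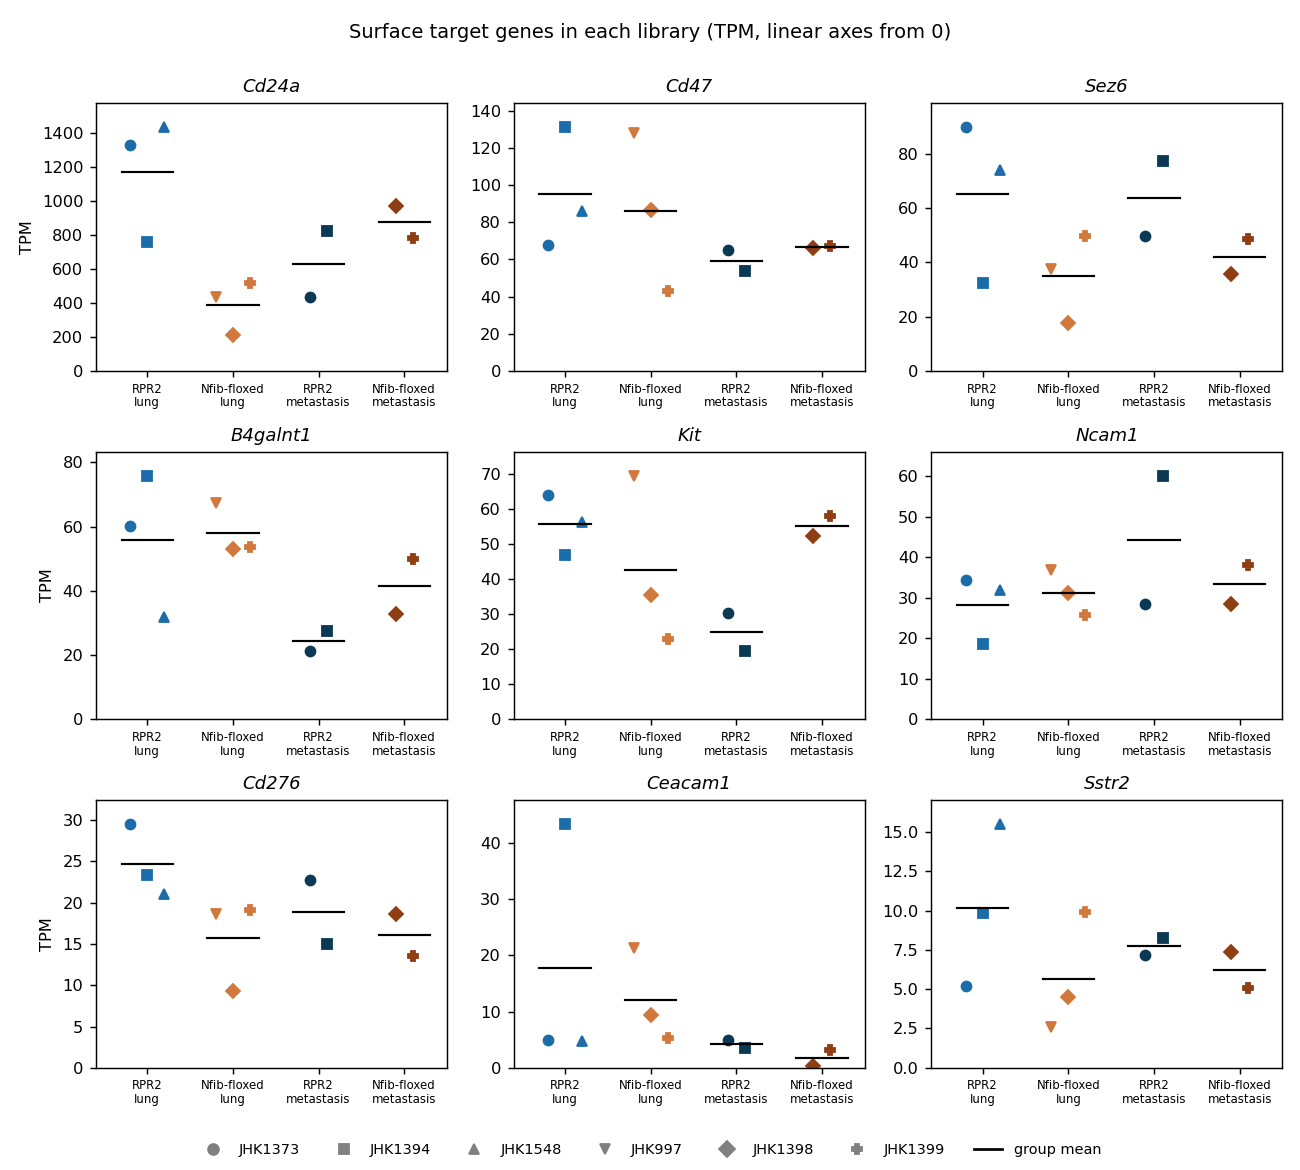
Levels of the 9 targets in TPM on linear axes from 0, a panel for each gene with its own scale. Points are libraries by genotype and tissue, marker shapes are mice and black lines are group means. Ceacam1 covers the widest range for its level, 0.315 to 43.3 TPM.

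The spread over libraries differed among the targets. Ceacam1 varied 137-fold between its lowest and highest library, with a coefficient of variation of 129%. Cd24a varied 6.82-fold and Sstr2 6.01-fold, and the other 6 varied between 3.05-fold (Cd47) and 5.03-fold (Sez6). The standard deviation of log2(TPM + 1) was 1.38 for Ceacam1 and 0.84 for Cd24a, where 500 tested genes of like level had medians of 0.65 and 0.50. For Ncam1, Sstr2 and Cd276 it was 0.42, 0.62 and 0.44, below the 0.48, 0.72 and 0.53 of genes of their level. The 4 groups held 69.9% of the variance of Cd24a, 64.7% of that of B4galnt1 and 56.1% of that of Kit. They held 23.7% for Cd47 and 25.8% for Ncam1, while the median of all tested genes was 43.5%.

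None of the 9 targets passed the limma test in any of the 7 comparisons made. Between Nfib-floxed and RPR2 lung tumors 0 of 9 were called, as were 0% of all genes tested, and 1 member had an unadjusted p under 0.05 beside 7.93% of all genes. Between Nfib-floxed and RPR2 metastases 0 of 9 were called beside 2.04% of all genes, and between RPR2 metastases and lung tumors 0 of 9 beside 5.61%. In Nfib-floxed metastases against lung tumors the call rate over all genes was 0.123%, in the interaction of genotype and tissue 0.581%, in the mean genotype effect 0.587% and in the mean tissue effect 5.88%. At an unadjusted p under 0.05 there was 1 member in the genotype comparison of metastases (12.8% of all genes), 2 in the tissue comparison of RPR2 (18.8%) and 2 in that of Nfib-floxed mice (9.39%). The interaction and the mean tissue effect each had 2 as well (9.68% and 20.8% of all genes), and the mean genotype effect had 0 (13.4%). A p that misses the threshold does not show that levels were equal, and the intervals below give the range of change left by 2 or 3 libraries a group.

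**Figure D2:**
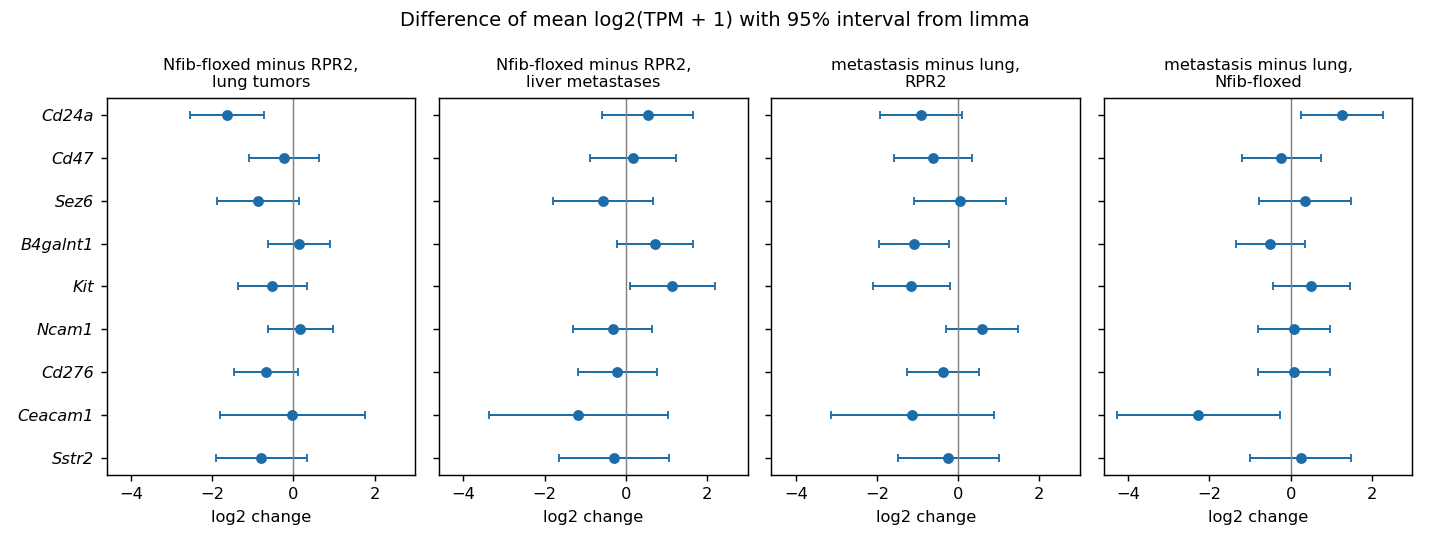
Log2 change of each target in 4 comparisons, with limma's 95% interval as a horizontal line around each point. The intervals of Cd24a between genotypes in the lung, Kit and B4galnt1 in RPR2 metastases and Ceacam1 in Nfib-floxed metastases lie below 0, those of Kit between genotypes in metastases and Cd24a in Nfib-floxed metastases lie above 0, and no target passed after adjustment over all genes.

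Among the proteins of nerve cells, Sez6 encodes a seizure-related membrane protein of neurons and a target of antibody-drug conjugates in this tumor. Its level was 89.6, 32.4 and 73.8 TPM in the RPR2 lung tumors of JHK1373, JHK1394 and JHK1548. The Nfib-floxed lung tumors of JHK997, JHK1398 and JHK1399 had 37.7, 17.8 and 49.7 TPM. RPR2 metastases had 49.5 (JHK1373) and 77.4 TPM (JHK1394), and Nfib-floxed metastases 35.5 (JHK1398) and 48.7 TPM (JHK1399). The lowest library of each lung group was the tumor with the most club cell RNA, and the lung groups overlapped. The 2 genotypes of metastasis did not overlap, with the nearest values at 48.7 and 49.5 TPM. The lung difference was -0.87 ± 0.46 (95% interval -1.89 to 0.14, adjusted p = 0.638), and the mean genotype effect -0.72 ± 0.37 (adjusted p = 0.447). The lung difference was -1.31 without the tumor of JHK1394, -0.46 without that of JHK1398 and -0.90 without both. Within mice, log2 Sez6 in the metastasis minus the lung tumor was -0.84 in JHK1373, 1.23 in JHK1394, 0.96 in JHK1398 and -0.03 in JHK1399, so mice of 1 genotype moved in opposite directions. Sez6l2, a paralog, was higher than Sez6 in every library except the RPR2 metastases, at 34.98 to 182 TPM, and Sez6l was at 0.085 to 20.9 TPM. Bace1, whose protease family cuts SEZ6, was at 7.25 to 31.0 TPM.

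Ncam1 encodes CD56, the neural cell adhesion molecule used as a diagnostic marker of neuroendocrine tumors. It was at 34.3, 18.6 and 32.0 TPM in the RPR2 lung tumors of JHK1373, JHK1394 and JHK1548. In the Nfib-floxed lung tumors of JHK997, JHK1398 and JHK1399 it was at 36.8, 31.2 and 25.8 TPM. The metastases of JHK1373 and JHK1394 had 28.5 and 60.1 TPM, and those of JHK1398 and JHK1399 had 28.4 and 38.2 TPM. In 9 libraries it lay between 18.6 and 38.2 TPM, with the RPR2 metastasis of JHK1394 alone above. The change from lung tumor to metastasis in RPR2 was 0.58 ± 0.40 (95% interval -0.31 to 1.47, adjusted p = 0.503). It was 0.05 without the metastasis of JHK1394, 0.31 without that mouse's lung tumor and 1.11 without the metastasis of JHK1373. St8sia4, which adds polysialic acid to NCAM1, differed by -1.96 ± 0.51 between Nfib-floxed and RPR2 lung tumors without passing (adjusted p = 0.595).

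Sstr2 encodes the somatostatin receptor that radiolabelled peptides bind, and had the lowest mean of the targets. RPR2 lung tumors of JHK1373, JHK1394 and JHK1548 had 5.18, 9.85 and 15.5 TPM. Nfib-floxed lung tumors of JHK997, JHK1398 and JHK1399 had 2.58, 4.52 and 9.92 TPM. The metastases had 7.18 (JHK1373), 8.27 (JHK1394), 7.34 (JHK1398) and 5.06 TPM (JHK1399). Lung groups overlapped and all 4 metastases lay inside the range of the lung tumors. The lung difference was -0.79 ± 0.50 (95% interval -1.90 to 0.32, adjusted p = 0.681). It was -0.45 without the tumor of JHK1548, -0.41 without that of JHK997 and -1.22 without that of JHK1399. The ligand gene Sst was listed at 0 to 0.467 TPM, under the level needed for the test. Of the other receptors of this peptide, Sstr1 ranged from 0.438 TPM in an RPR2 metastasis to 65.9 TPM in an Nfib-floxed lung tumor (change between genotypes in metastases 3.52 ± 1.30, adjusted p = 0.243).

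Kit encodes the receptor tyrosine kinase for stem cell factor, a target of small-molecule kinase inhibitors. The RPR2 lung tumors of JHK1373, JHK1394 and JHK1548 had 64.0, 47.0 and 56.5 TPM, and their metastases in JHK1373 and JHK1394 had 30.4 and 19.5 TPM. The Nfib-floxed lung tumors of JHK997, JHK1398 and JHK1399 had 69.6, 35.6 and 22.9 TPM, and the metastases of JHK1398 and JHK1399 had 52.5 and 58.1 TPM. Both RPR2 metastases were below every RPR2 lung tumor and below both Nfib-floxed metastases, while the Nfib-floxed lung tumors covered nearly the whole range. The change from lung tumor to metastasis was -1.15 ± 0.43 in RPR2 (95% interval -2.10 to -0.21, adjusted p = 0.167) and 0.51 ± 0.43 in Nfib-floxed mice (adjusted p = 0.761). The latter was 0.93 without the lung tumor of JHK997 and 0.15 without that of JHK1399. The RPR2 change was -0.84 without the metastasis of JHK1394 and -1.46 without that of JHK1373. The difference between the changes of the 2 genotypes was 1.66 ± 0.61 (95% interval 0.32 to 3.00, adjusted p = 0.357), and that between genotypes in metastases was 1.15 ± 0.47 (adjusted p = 0.31). In each pair from the same mouse, the log2 level in the metastasis minus that in the lung tumor was -1.05 in JHK1373 and -1.23 in JHK1394, against 0.55 in JHK1398 and 1.31 in JHK1399. The genotype difference in metastases was 0.84 without the metastasis of JHK1394 and 1.46 without that of JHK1373. With array weights, which give less weight to libraries that deviate more, Kit was called in RPR2 metastases (-1.22, adjusted p = 0.0442).

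The ligand gene Kitl differed in the other direction without passing. It was at 49.0 and 74.1 TPM in RPR2 metastases and at 13.5 and 1.39 TPM in Nfib-floxed metastases (change -3.38 ± 0.97, adjusted p = 0.118). RPR2 lung tumors had 4.60, 29.9 and 34.7 TPM and Nfib-floxed lung tumors 1.95 to 5.09 TPM, and the mean genotype effect was -2.70 ± 0.63 (adjusted p = 0.102). Mast cells carry KIT, and the summed level of 7 mast cell markers was 0.728 to 46.1 TPM, mostly of Hdc, with each of the other 6 under 1 TPM in every library. The epithelial markers moved with Kit in RPR2 metastases: their sum was 260 and 315 TPM there and 2044 to 4155 TPM in lung tumors of either genotype. The endothelial marker sum was also lower there, at 45.7 and 52.8 TPM against 574 to 1693 TPM in lung tumors. Only 1 of these 6 markers was called in RPR2 metastases against lung tumors, and their median log2 change was -0.58. Kupffer cell markers were higher, at 132 and 86.4 TPM against 2.15 to 24.7 TPM, as were the hepatocyte markers given above. The part of all these markers in the difference of Kit was not tested.

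Cd276 encodes B7-H3, a member of the B7 family of checkpoint proteins found on many solid tumors. It was at 29.5, 23.3 and 21.1 TPM in the RPR2 lung tumors of JHK1373, JHK1394 and JHK1548. The Nfib-floxed lung tumors of JHK997, JHK1398 and JHK1399 had 18.6, 9.33 and 19.1 TPM, all below every RPR2 lung tumor. Metastases had 22.7 (JHK1373), 14.9 (JHK1394), 18.6 (JHK1398) and 13.5 TPM (JHK1399), with overlap between the genotypes. The lung groups of 2 of the 9 targets, Cd276 and Cd24a, did not overlap, while this held for 14.5% of all genes tested. The lung difference of Cd276 was -0.67 ± 0.36 (95% interval -1.46 to 0.12, adjusted p = 0.643). Without the lung tumor of JHK1398 it was -0.355. Cd274, the related ligand PD-L1, was at 16.9, 11.1 and 7.74 TPM in RPR2 lung tumors and 3.60 and 2.33 TPM in RPR2 metastases (change -1.66 ± 0.43, adjusted p = 0.051).

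Cd47 encodes the signal that restrains phagocytosis through SIRPA on macrophages. RPR2 lung tumors of JHK1373, JHK1394 and JHK1548 had 67.7, 131 and 86.0 TPM, and Nfib-floxed lung tumors of JHK997, JHK1398 and JHK1399 had 128, 86.4 and 43.0 TPM. The 4 metastases lay close together, at 64.9 (JHK1373), 53.7 (JHK1394), 66.3 (JHK1398) and 67.1 TPM (JHK1399). Both RPR2 metastases were below all RPR2 lung tumors. The change was -0.62 ± 0.44 in that comparison (adjusted p = 0.509) and -0.37 without the lung tumor of JHK1394, which had the highest level. Macrophage markers summed to 4856 TPM in that tumor, 610 to 1566 TPM in the other lung tumors and 209 to 647 TPM in metastases. The same tumor had the highest club cell and alveolar type 2 cell sums, and the part of all these cells was not tested. Sirpa, the receptor, was at 15.5 to 65.7 TPM.

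Cd24a encodes the mouse form of CD24, a small glycoprotein whose human form is read by an inhibitory receptor on macrophages. Of the 9 targets it had the largest change between genotypes in the lung. RPR2 lung tumors of JHK1373, JHK1394 and JHK1548 had 1325, 756 and 1429.7 TPM (mean 1170.4 ± 362, SD, n = 3). Nfib-floxed lung tumors of JHK997, JHK1398 and JHK1399 had 432, 210 and 515 TPM (386 ± 158, n = 3). All 3 were below all RPR2 lung tumors. The change was -1.64 ± 0.41 (95% interval -2.55 to -0.73), with an unadjusted p of 0.00228 and an adjusted p of 0.595 by limma. It was -1.54 (adjusted p = 0.259) without the lung tumors of JHK1394 and JHK1398, which held the most club cell RNA. Left out singly, the tumor of JHK1394 made it -1.93 and that of JHK1398 made it -1.255.

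Cd24a showed no such order in the liver. The RPR2 metastases of JHK1373 and JHK1394 had 436 and 820 TPM, and the Nfib-floxed metastases of JHK1398 and JHK1399 had 969 and 778 TPM, which overlap. The genotype change in metastases was 0.54 ± 0.50 (adjusted p = 0.793), at 0.08 without the metastasis of JHK1373 and 0.99 without that of JHK1394. The interaction was 2.18 ± 0.65 (95% interval 0.74 to 3.62, unadjusted p = 0.00679, adjusted p = 0.249). From lung tumor to metastasis the change was -0.91 ± 0.46 in RPR2 (adjusted p = 0.325) and 1.27 ± 0.46 in Nfib-floxed mice (adjusted p = 0.431). Within mice it was -1.60 in JHK1373 and 0.12 in JHK1394, 2.20 in JHK1398 and 0.59 in JHK1399. The RPR2 value was -0.46 without the metastasis of JHK1373 and -1.37 without that of JHK1394, and the Nfib-floxed value was 0.88 without the lung tumor of JHK1398. With array weights the RPR2 change was called (-1.12, adjusted p = 0.0407). Siglecg, the mouse counterpart of the human receptor for CD24, was listed at 0 to 1.52 TPM and not tested.

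**Figure D3:**
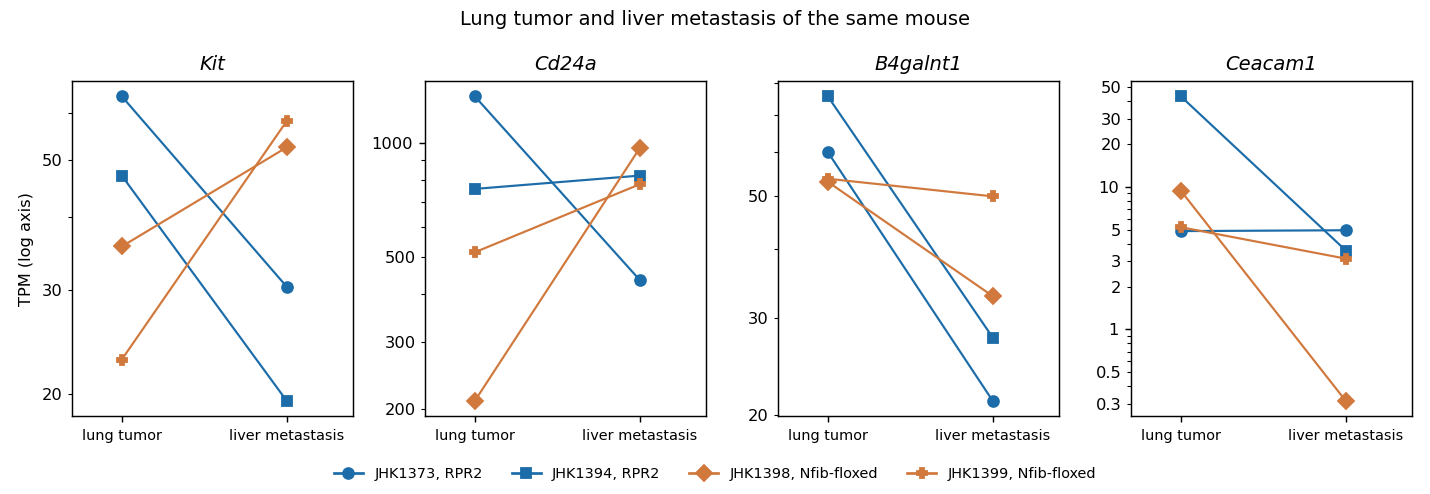
Levels of Kit, Cd24a, B4galnt1 and Ceacam1 in TPM on a log axis in the lung tumor and the liver metastasis of each of 4 mice, joined by a line for each mouse. Kit lines fall in both RPR2 mice and rise in both Nfib-floxed mice, and B4galnt1 lines fall in all 4.

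Ceacam1 encodes an adhesion protein of epithelial, endothelial and myeloid cells that also acts as an inhibitory receptor. Its near-identical neighbour Ceacam2 was listed at 0 to 0.934 TPM, and reads shared between the 2 genes make either level uncertain. RPR2 lung tumors of JHK1373, JHK1394 and JHK1548 had 4.90, 43.3 and 4.82 TPM. Nfib-floxed lung tumors of JHK997, JHK1398 and JHK1399 had 21.4, 9.43 and 5.22 TPM. Metastases had 4.97 (JHK1373), 3.58 (JHK1394), 0.315 (JHK1398) and 3.14 TPM (JHK1399). The highest library was the lung tumor of JHK1394, which also had the highest macrophage, club cell and alveolar type 2 cell sums. The part of those cells was not tested. Both Nfib-floxed metastases were below all lung tumors of that genotype (-2.28 ± 0.91, 95% interval -4.29 to -0.27, adjusted p = 0.476). That change was -1.45 without the metastasis of JHK1398. It also depends on the pseudocount, at -3.15 with 0.1 and -1.26 with 5. Over both genotypes the tissue effect was -1.71 ± 0.64 (adjusted p = 0.159), and -1.25 without the lung tumors of JHK1394 and JHK1398. With those pseudocounts it was -2.20 and -1.06.

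B4galnt1 encodes the transferase that makes the gangliosides GM2 and GD2, the second of which is bound by therapeutic antibodies. RPR2 lung tumors of JHK1373, JHK1394 and JHK1548 had 60.1, 75.8 and 31.8 TPM, and Nfib-floxed lung tumors of JHK997, JHK1398 and JHK1399 had 67.4, 53.0 and 53.7 TPM. The metastases had 21.2 (JHK1373), 27.7 (JHK1394), 32.9 (JHK1398) and 49.9 TPM (JHK1399). In either genotype every metastasis was below every lung tumor, and both RPR2 metastases were below both Nfib-floxed ones. The change from lung tumor to metastasis was -1.09 ± 0.39 in RPR2 (95% interval -1.94 to -0.23, adjusted p = 0.149) and -0.50 ± 0.39 in Nfib-floxed mice (adjusted p = 0.736). The RPR2 value was -0.83 without the lung tumor of JHK1394 and -1.44 without that of JHK1548. The Nfib-floxed value was -0.21 without the metastasis of JHK1398 and -0.79 without that of JHK1399. Over both genotypes it was -0.79 ± 0.27 (95% interval -1.40 to -0.19, adjusted p = 0.127). Without the metastasis of JHK1398 it was -0.65, and without the lung tumor of JHK1548 it was -0.97. Within mice it was -1.46 in JHK1373, -1.42 in JHK1394, -0.67 in JHK1398 and -0.10 in JHK1399, lower in 4 of 4 metastases. The share of all genes lower in all 4 was not counted, and 41.6% of all genes had a mean tissue effect above 0. The epithelial and endothelial marker sums given above were also lower in the RPR2 metastases, with 1 of 6 endothelial markers called. Hepatocyte and Kupffer cell sums were higher there. The part of all these markers in the difference of B4galnt1 was not tested.

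Enzymes next to B4galnt1 in the ganglioside route were also measured. St3gal5, which makes its GM3 substrate, was at 62.0 and 74.9 TPM in RPR2 metastases and 23.1, 47.0 and 30.3 TPM in RPR2 lung tumors (change 1.06 ± 0.47, adjusted p = 0.255). St8sia1, which makes GD3, was at 0.555 to 9.97 TPM. B4galt6, an earlier enzyme of the route, was at 16.2 and 20.1 TPM in RPR2 metastases and 62.4 to 72.7 TPM in RPR2 lung tumors (change -1.85 ± 0.49, adjusted p = 0.0538).

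Groups of metastases did not overlap in 5 of the 9 targets between genotypes, namely Sez6, Cd47, Kit, B4galnt1 and Ceacam1. This held for 45.8% of all genes tested, where groups of 2 libraries are compared. From lung tumor to metastasis the groups did not overlap in 3 targets in RPR2 (Cd47, Kit and B4galnt1, beside 46.1% of all genes) and in 3 in Nfib-floxed mice (Cd24a, B4galnt1 and Ceacam1, beside 22.5%). With the tissues or the genotypes pooled, 0 of 9 did not overlap between genotypes (1.34% of all genes) and 0 of 9 between tissues (4.75%). Across the targets, the median log2 change in lung tumors of Nfib-floxed against RPR2 mice was -0.51, with 7 of 9 lower. That of all genes was -0.10, with only 42.4% of them higher. In RPR2 metastases against lung tumors it was -0.62, again with 7 of 9 lower, and that of all genes was -0.15, with 40.3% higher. In Nfib-floxed metastases against lung tumors it was 0.09 (all genes -0.05), and in metastases between genotypes -0.20 (all genes 0). These comparisons share libraries.

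In all, 10 lists with 80 related genes, chosen by function, were read in the same fit, and 67 of them were expressed highly enough to be tested. They held ligands, receptors, paralogs, enzymes and other surface targets. Of the 67, 9 fell in RPR2 metastases against lung tumors and 0 rose, beside 5.61% of all genes called in either direction, and their median change was -0.85. Epcam, an epithelial adhesion protein and antibody target, was at 736, 733 and 674 TPM in RPR2 lung tumors and 85.8 and 93.2 TPM in RPR2 metastases (-2.98 ± 0.33, adjusted p = 0.00119). Cd200, a ligand that restrains myeloid cells, was at 78.1, 128 and 80.6 TPM against 23.1 and 19.0 TPM (-2.10 ± 0.36, adjusted p = 0.0075). Erbb3 and Nectin4, a growth factor receptor and a conjugate target, fell by 2.77 ± 0.55 and by 2.72 ± 0.57 on the log2 scale. Thbs1, which encodes a secreted ligand of CD47, F3, which encodes tissue factor, Ceacam10 and the protease gene Bace2 also fell, by 4.16, 4.13, 4.07 and 3.08. Ceacam10 was at 0 and 0.617 TPM in RPR2 metastases, so its value depends on the pseudocount and ran from -6.24 to -2.31 over the alternatives. With mouse as a fixed block it was not called (-4.71, adjusted p = 0.0506). Epithelial markers, Epcam among them, fell as well, with 7 of 8 called. In the same comparison 8 of 10 hepatocyte and 3 of 5 Kupffer cell markers rose. In turn, 4 of 5 club cell, 2 of 6 alveolar type 2 cell and 1 of 11 neuroendocrine markers fell. Neuroendocrine sums were 3187 and 3948 TPM in the metastases. Within these sums Calca was at 545 and 1410 TPM, against 9162 to 18196 TPM in RPR2 lung tumors. The part of all these cell types in the fall of the related genes was not tested. The count of 9 was 5 without the lung tumor of JHK1373, 3 without that of JHK1394, 5 without those of both JHK1394 and JHK1398, 3 without the metastasis of JHK1373 and 1 without that of JHK1394. Epcam was called in all 21 alternatives in this comparison, Cd200 in 20, Erbb3 in 18, Nectin4 in 15, Thbs1 in 14, F3 in 13, and Ceacam10 and Bace2 in 12 each.

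Between genotypes in metastases, 2 of the 67 rose in Nfib-floxed mice, Epcam and Cd200, beside 2.04% of all genes called in either direction. Epcam had 407 and 763 TPM there (2.63 ± 0.36, adjusted p = 0.00523), and Cd200 had 99.9 and 120 TPM (2.33 ± 0.39, adjusted p = 0.0172). Nfib-floxed lung tumors had 316 to 510 TPM of Epcam and 112 to 221 TPM of Cd200. Between genotypes in metastases 7 of 8 epithelial markers, Epcam among them, and 1 of 6 endothelial markers also rose. In the same comparison 2 of 10 hepatocyte and 3 of 5 Kupffer cell markers fell. The part of these cell types in the rise of Epcam and Cd200 was not tested. For Epcam the interaction of genotype and tissue also passed (3.41 ± 0.47, adjusted p = 0.0125), and for Cd200 the mean genotype effect did (1.61 ± 0.26, adjusted p = 0.0264). Each was the 1 gene of the 67 called in its comparison, beside 0.581% and 0.587% of all genes. Over both genotypes 7 of the 67 were lower in metastases, beside 5.88% of all genes called in either direction. Epcam, Cd200 and Nectin4 were among the 7. With mouse as a fixed block, the calls of Epcam (-1.28, adjusted p = 0.0962), Cd200 (-1.33, adjusted p = 0.0693), Ceacam10 and the lysosomal enzyme gene Hexa were lost. Leaving out either RPR2 metastasis made the count of 7 fall to 1, leaving out the Nfib-floxed metastasis of JHK1398 made it 2, and leaving out that of JHK1399 made it 11. Epcam was called in metastases in 19 of 20 alternatives and was lost where only the 2 compared groups were fitted (highest adjusted p = 0.151). Cd200 was called there in 15 of 20 alternatives, and was lost in that fit and without either RPR2 metastasis or either Nfib-floxed one, at 2.14 to 2.47 over the alternatives. The interaction of Epcam was called in 15 of 20 alternatives, at 2.96 to 3.86. It was lost with mouse as a fixed block (adjusted p = 0.122), without the RPR2 lung tumor of JHK1373, without either RPR2 metastasis and without the lung tumors of both JHK1394 and JHK1398. The mean genotype effect of Cd200 was lost in 6 of 19 alternatives, each a fit without 1 of the libraries of JHK1373, JHK1394, JHK1548, JHK997 or JHK1399, at 1.47 to 1.87. In lung tumors between genotypes and in Nfib-floxed metastases against lung tumors, 0 of the 67 were called by limma, with 6 and 9 at an unadjusted p under 0.05 (7.93% and 9.39% of all genes). Dll3, an inhibitory Notch ligand and a target of T cell engagers, was at 27.3, 19.4 and 21.6 TPM in RPR2 and 10.4, 19.8 and 7.92 TPM in Nfib-floxed lung tumors (-0.87 ± 0.38, adjusted p = 0.621). RPR2 metastases had 27.2 and 33.3 TPM of Dll3, and Nfib-floxed metastases 26.9 and 14.8 TPM.

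**Figure D4:**
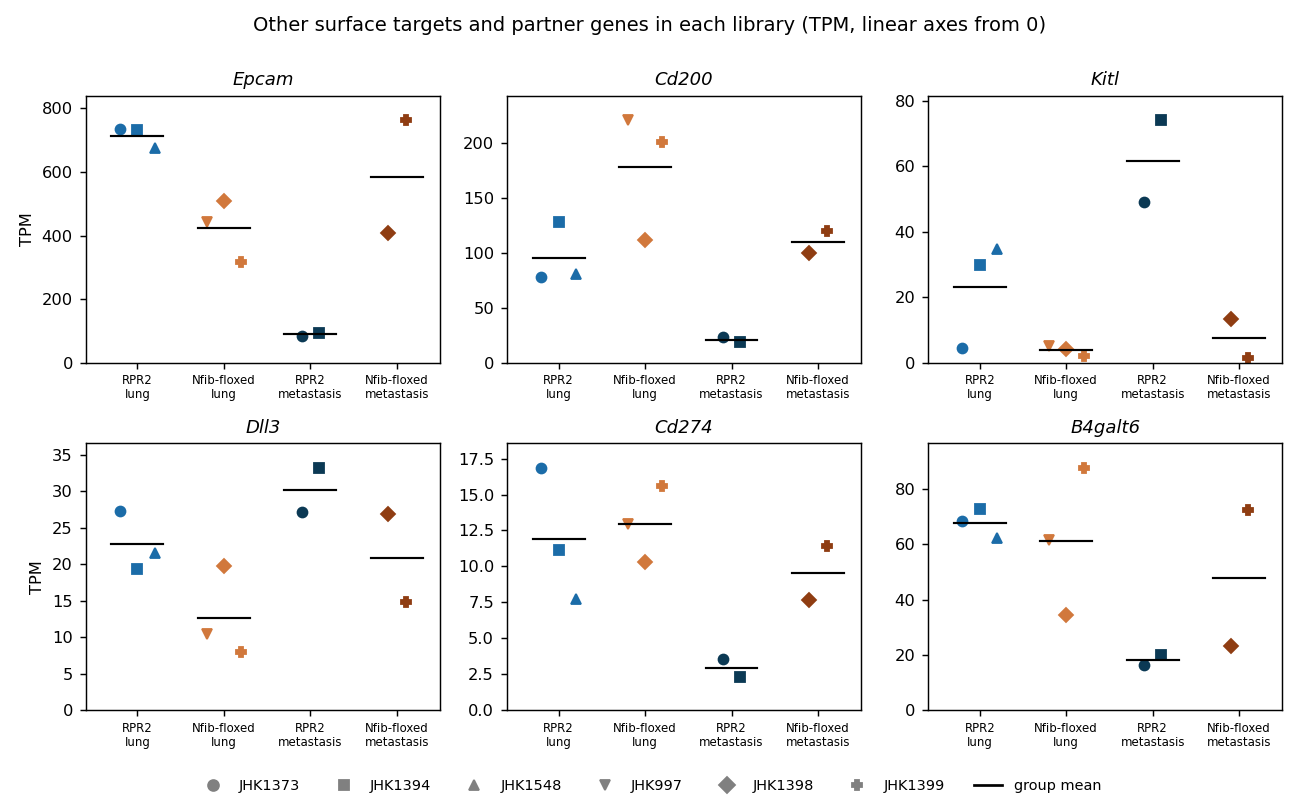
Levels of Epcam, Cd200, Kitl, Dll3, Cd274 and B4galt6 in TPM, on linear axes from 0, with a point for each library by genotype and tissue and a black line at each group mean. Epcam and Cd200 are lowest in the 2 RPR2 metastases, where Kitl is highest.

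Genes whose levels followed each target most closely over the 10 libraries were listed by Pearson's r of log2(TPM + 1), as a description. Cd24a was closest to Fignl1 (0.970), Rpgrip1l (0.962) and Wscd1 (0.954), and Sez6 to Ncdn (0.964), Trim32 (0.959) and Gemin8 (0.952). Kit was closest to Adamts5 (0.933), Bhlha15 (0.932) and App (0.930), and B4galnt1 to Igsf5 (0.955), Slc52a3 (0.953) and Col18a1 (0.951). For Cd47 they were Gcnt1 (0.967), Pls3 (0.924) and Adam28 (0.917), and for Cd276 Nhlrc2 (0.935), Osbp (0.933) and Slc39a11 (0.914). Ceacam1 was closest to S100a4 (0.985), Myadm (0.961) and the myeloid receptor gene Cd33 (0.957). Ncam1 had Rbm6 (0.921), Zfp821 (0.911) and Tubgcp6 (0.905), and Sstr2 had As3mt (0.893), Sdhc (0.854) and Sumf2 (0.851). Among the targets themselves the closest pair was Sez6 and Cd24a (0.764), followed by Cd47 and Ceacam1 (0.723). Each r spans 10 libraries of 4 groups and 6 mice, picked as the highest of many genes.

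In genome build GRCm38, positions of the 9 genes lay on 6 chromosomes. Kit (ENSMUSG00000005672) lies on chromosome 5 from 75574916 to 75656722 and Ceacam1 (ENSMUSG00000074272) on chromosome 7 from 25461707 to 25477603. Ncam1 (ENSMUSG00000039542) and Cd276 (ENSMUSG00000035914) lie on chromosome 9, from 49502136 to 49798925 and from 58524298 to 58555437. Cd24a (ENSMUSG00000047139) and B4galnt1 (ENSMUSG00000006731) lie on chromosome 10, from 43578284 to 43584265 and from 127165225 to 127172330. Sez6 (ENSMUSG00000000632) and Sstr2 (ENSMUSG00000047904) lie on chromosome 11, from 77930800 to 77979048 and from 113619342 to 113626028. Cd47 (ENSMUSG00000055447) lies on chromosome 16 from 49800533 to 49915010. Ceacam1, Ncam1 and Cd276 are on the minus strand and the other 6 on the plus strand.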

How the data were processed

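Tumors were macrodissected when the mice were moribund and frozen, and a NEBNext Ultra II kit was used on polyA RNA, per the labels' protocols. The submitters' processing notes name Salmon 0.12.0, bcl2fastq 2.20, R 4.1.0 and build GRCm38. The sources used here give no annotation, settings or strand, so antisense partners cannot be told apart. The authors deposited TPM per gene, set to 1000000 per library, so depth is unknown and intervals cover no counting error.

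Libraries were grouped by their labels into 4 groups. TPM were changed to log2(TPM + 1), a pseudocount of 1, and the 15503 genes whose mean reached 1 TPM entered limma 3.58.1 (R 4.3.3, with Python 3.11.15 elsewhere). A single model of the 4 groups with moderated variances and a mean trend gave 7 two-sided comparisons, with 6 residual and 4.56 prior degrees of freedom. Mouse was a random effect (correlation 0.0509) in the mean genotype effect only, and elsewhere the 2 tumors of a mouse counted as independent. Positions are from GENCODE M21, where all 9 identifiers matched. The test was tried on simulated data. The members and all gene lists were chosen with earlier results of these data known.

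Text names the 9 members, related genes that passed (at most 4 a list by size), the direct partners of each target whatever their p, and the 3 genes most like each member, passing over predicted genes. Some genes that this rule takes are not reported here. St8sia4, Sstr1, Sez6l, Sez6l2, B4galt6 and Ceacam2, and the genes past that number, were named after their values were seen. Alternatives were other pseudocounts, filters and scalings, array weights, the compared groups alone, mouse as a block, and leaving out each library. Lung tumors and metastases with the same mouse tag are pairs by design, and the correlation across genes of their deviations from group means was -0.0229, -0.008, 0.0426 and 0.0489 for the 4 mice. A fit without 2 lung tumors, those of JHK1394 and JHK1398, was added after the data were seen.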

Additional observations from a re-analysis of the deposited data

Results flagged for a closer look

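Kit changed in opposite directions between genotypes within mice: it was lower in the metastasis than in the lung tumor of both RPR2 mice and higher in both Nfib-floxed mice. The difference of these changes was 1.66 ± 0.61 on the log2 scale, which missed the threshold in limma (adjusted p = 0.357, n = 10 libraries). It was 2.07 (adjusted p = 0.285) with mouse as a fixed block. Kit was picked from the 9 targets because its 4 pairs showed this pattern of signs. The share of all genes with such a pattern was not counted.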

How the results depend on the processing

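Over 22 settings, 140 of 141 counts of targets called stayed at 0, and they were 0 in all 7 comparisons when each library was left out. The exception was array weights, under which 2 targets, Kit and Cd24a, were called in RPR2 metastases against lung tumors, and the cause was not tested. Library weights ran from 0.198 (the lung tumor of JHK1398) to 2.81. With mouse as a replicate block no target was called, and in RPR2 metastases B4galnt1 changed by -1.44 (adjusted p = 0.112) and Kit by -1.14 (adjusted p = 0.218). Of 1269 changes of single targets under an alternative, 68 had the other sign than the value reported. None of the 68 was called, and their causes were not tested.

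In lung tumors, Ceacam1 was at 0.0091 with a pseudocount of 0.1, 0.011 with quantile normalization, 0.077 with median centring, 0.931 with array weights and 1.01 without the lung tumors of JHK1394 and JHK1398. The tissue effect of Sstr2 over both genotypes was 0.027, 0.283, 0.158 and 0.051 with that pseudocount, quantile normalization, median centring and array weights. That of Cd276 was 0.015 with quantile normalization and 0.0068 with median centring. With array weights, Cd47 was at 0.084 in lung tumors and 0.130 in the mean genotype effect, and Sez6 at -0.228 in RPR2 metastases and -0.068 in the mean tissue effect. Cd276 was then at -0.157 in Nfib-floxed metastases and Cd24a at -0.057 in the mean tissue effect. With the mouse block, Sstr2 was at 0.088 in RPR2 metastases, -0.126 in Nfib-floxed metastases and -0.215 in the interaction, and Cd47 at 0.127 in Nfib-floxed metastases. Sstr2 in RPR2 metastases was at 0.0014 with quantile normalization. Without the lung tumors of both JHK1394 and JHK1398, Sez6 was at -0.387 in RPR2 metastases, -0.055 in Nfib-floxed metastases and -0.221 in the mean tissue effect. Cd276 was then at -0.234 in Nfib-floxed metastases, Cd47 at 0.039 in the mean genotype effect, Cd24a at -0.162 in the mean tissue effect and Ncam1 at -0.102 in lung tumors.

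The other reversals came from leaving out a single library, and the lowest and highest values follow. Between genotypes in lung tumors they were -0.222 and 0.391 for B4galnt1, -0.576 and 0.202 for Cd47, -0.514 and 0.950 for Ceacam1, and -0.096 and 0.328 for Ncam1. Between genotypes in metastases they were -0.492 and 0.083 for Cd276 and -0.846 and 0.204 for Ncam1. In RPR2 metastases against lung tumors they were -0.387 and 0.363 for Sez6 and -0.619 and 0.088 for Sstr2. In Nfib-floxed metastases against lung tumors they were -0.234 and 0.298 for Cd276, -0.650 and 0.127 for Cd47, and -0.118 and 0.295 for Ncam1. There Sez6 had -0.055 and 0.659 and Sstr2 had -0.126 and 0.679. In the interaction they were -0.028 and 0.749 for Cd47, -1.02 and 0.034 for Ncam1, and -0.100 and 0.744 for Sez6. In the mean genotype effect they were -0.200 and 0.195 for Cd47 and -0.362 and 0.213 for Ncam1. In the mean tissue effect they were -0.051 and 0.404 for Cd24a, -0.015 and 0.360 for Sez6, and -0.187 and 0.216 for Sstr2.

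The count of related genes called in RPR2 metastases against lung tumors ran from 1 to 15 over the settings.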
